A study of Mus musculus with 6 samples.

Results

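The genes described here encode nuclear receptors other than the estrogen-related receptors, measured in the stria vascularis of wild-type and Errb mutant mice. Members were taken from a list of 37 genes, each read by its probe set of highest mean signal over 6 arrays among those annotated with that symbol alone. This gave 36 genes of 18193 on the array, read by 98 probe sets in all. Nr1h2 was not analysed here.

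Total RNA from 6 pools of 10 mice was hybridised to 1 array per pool. There were 3 wild-type pools and 3 pools from mice with a conditional mutation of Errb (Esrrb or Nr3b2), which encodes estrogen-related receptor beta. The driver of the conditional deletion and the strain are unknown here. Only the label of wild-type pool 1 states an age, postnatal day 3 to 5. The tissue is named as stria vascularis, as in the labels, although the design text mentions inner ears. Mutant and wild-type pools of the same replicate number are called pairs 1 to 3. Levels are log2 probe set signals, and differences are log2 mutant signals minus wild-type signals, given as the mean ± SD of the 3 pairs (n = 3).

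Nuclear receptors are transcription factors, most of which bind DNA through a zinc finger domain and respond to small lipophilic ligands such as thyroid hormone, retinoids, steroids and oxysterols. Many pair with a retinoid X receptor, whereas estrogen-related receptors and several other orphan receptors can bind a single extended half-site. The stria vascularis lines the lateral wall of the cochlea and secretes the potassium of endolymph. Thyroid hormone and its receptors are known for their part in the maturation of the inner ear, and mineralocorticoid and glucocorticoid receptors for the control of epithelial ion transport.

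Promoter windows from RefSeq (GRCm38.p6), 250 bases before to 50 after each annotated start, were found for 35 of the 37 genes, in 52 windows. Thra and Nr3c1 were not matched. The element bound by estrogen-related receptors, TCAAGGTCA, was searched on both strands and occurred in 0 of the 52 windows, against 0.423% of 32851 windows of all genes. Its core AAGGTCA, which every longer match also contains, occurred in 3 of 52 (5.77%), against 4.72% of all windows. The shorter half-site AGGTCA, which is contained in both longer motifs, occurred in 11 of 52 windows (21.2%) of 10 genes, against 16.3%. The 3 windows with the core are shown because it is the sequence nearest to the element of the mutated factor. They are printed in the direction of transcription with the match in capitals, as AAGGTCA on the gene's own strand or TGACCTT on the opposite one.
Rxra: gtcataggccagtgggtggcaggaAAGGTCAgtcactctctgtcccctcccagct
Rxrg: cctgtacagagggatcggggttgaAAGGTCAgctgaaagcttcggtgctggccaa
Nr6a1: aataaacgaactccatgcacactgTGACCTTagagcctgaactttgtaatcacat
The Rxra stretch is chr2:27709219-27709273 on the plus strand, with the match 49 to 43 bases before the start. The Rxrg stretch is chr1:167618152-167618206 on the plus strand, with the match 89 to 83 bases before the start. The Nr6a1 stretch is chr2:38784576-38784630 on the minus strand, with the match 91 to 85 bases before the start. A match is a run of letters, and binding there was not measured.

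No nuclear receptor gene of the 36 passed the test for a genotype difference. The test was limma with the replicate number as a block and Benjamini-Hochberg adjustment over 45037 probe sets, at a threshold of 0.05. Over all genes 0.148% passed. Adjusted p-values of the 36 ran from 0.516 to 0.978. At an unadjusted p under 0.05 there were 3 of 36, namely Nr2f1, Nr3c2 and Vdr, against 7.35% of all genes. Without the block no member passed either, against 0.0055% of all genes. At an unadjusted p under 0.05 that fit gave 0 of 36, against 56 of all 18193 genes. Differences were positive for 16 genes and negative for 20, with a median of -0.017, against 0.0036 over all 18193 genes. The interquartile range of the members was -0.12 to 0.14.

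The size of difference that the arrays allowed was small for most members under this model, as for most genes. The 95% interval of the paired fit lay within a 2-fold change in either direction for 35 of the 36 genes, against 98.7% of all genes. It lay within 1.5-fold for 33 of the 36, against 17140 of all 18193 genes. Nr2f6 was the exception at 2-fold. Without the block, where the variation between pairs stays in the error, 14 of the 36 intervals lay within 2-fold. The share of all genes was not computed for that fit. The labels do not say whether pools came from separate litters, so p-values measure only the spread between these pools, which may be technical. An exact permutation test of 3 against 3 arrays has a smallest p of 0.1. On values as deposited, genotypes overlapped for all 36 genes, and only 1.07% of all genes had no overlap. Array medians differed between pairs, which favours overlap on that scale. With arrays centred on their medians Vdr and Nr4a2 did not overlap. For Nr4a2 the highest wild-type value was 0.327 and the lowest mutant value 0.329, so the genotypes nearly touched. The share over all genes was not computed on that scale, so this count says nothing particular about the receptors.

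**Figure D1:**
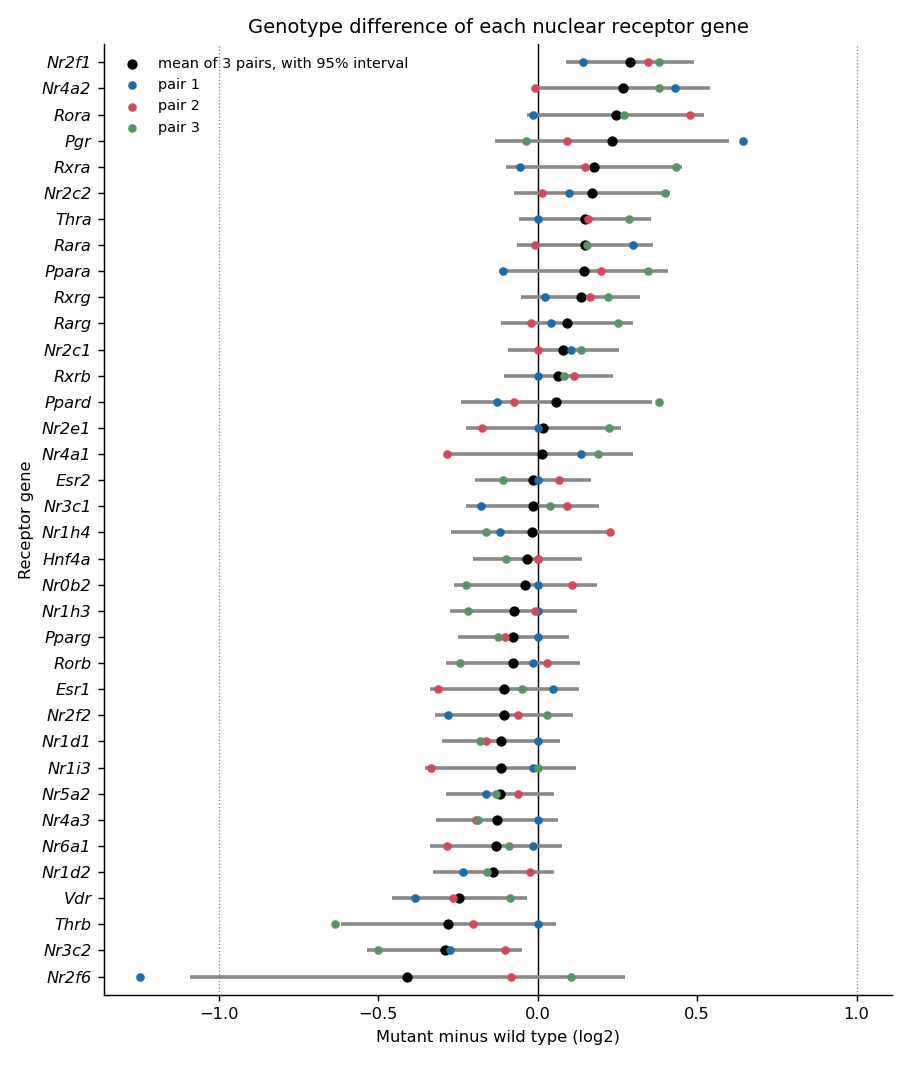
Mutant minus wild-type difference (log2, horizontal axis) of each of the 36 receptor genes, ordered by their mean. Black points are means of 3 pairs, grey bars 95% intervals of the paired fit, coloured points single pairs, and dotted lines a 2-fold change; the only bar that crosses a dotted line is that of Nr2f6.

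The arrays differed by pair in ways that touch every value here. Medians of all probe sets were 6.07, 6.95 and 6.42 on wild-type arrays 1 to 3 and 6.08, 6.94 and 6.38 on the mutant arrays. Exactly equal values on both arrays of a pair occurred for 11 of the 36 receptor genes in pair 1, 2 in pair 2 and 1 in pair 3. Over all genes the shares were 32.1%, 2.25% and 2.58%. The arrays of pair 1 held 16944 and 20239 distinct values over 45037 probe sets, against 41931 to 42369 on the other arrays, so a pair 1 difference of 0 reports a tie in the deposited values. Control probe sets of Gapdh, a sign of RNA quality, read more at the 3' than at the 5' end by 2.28 and 2.57 in wild type and mutant of pair 1. The gap was 0.21 and 0.16 for pair 2 and -0.045 and 0.51 for pair 3. The part of these features in the differences below was not tested.

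Markers of the labelled tissue were present, and so were those of spiral ligament, cartilage and bone. In wild type Kcnq1 (9.68), Dct (12.32) and Cldn11 (11.06), which mark marginal, intermediate and basal cells, had high signals, with Kcnq1 at up to the 94.6 percentile of an array and Cldn11 at the 97.2 to 98.7 percentile. Hair and supporting cell genes were read by 7 probe sets, of which the hair cell factors Pou4f3 and Atoh1 were lowest, at the 9.10 to 19.3 and 26.2 to 29.1 percentiles. Otog, a gene of the acellular membranes, was highest at 75.9 to 83.0. The log2 of the summed signals of this list was 9.70 to 10.31 in wild type and 9.97 to 11.74 in the mutant. Its median difference was 0.27, with 2 of 7 higher at an unadjusted p under 0.05 and 0 passed. In wild type the log2 sum was 14.42 to 15.46 over 7 spiral ligament fibrocyte genes. Over 8 cartilage and bone genes it was 13.90 to 15.37. Both lay above the marginal cell list given below on each wild-type array. The part of these lists in the receptor values was not tested. Esrrb itself had signals of 9.68, 10.60 and 9.96 in wild type and 9.76, 10.28 and 9.98 in the mutant. Whether its probe set lies in the deleted part is unknown here, so it checks nothing about the labels. The median difference was -1.31 over 8 marginal cell genes (4 passed, all lower), -0.64 over 10 intermediate cell genes (0 passed) and -0.28 over 6 basal cell genes (1 passed, lower). The log2 of the summed signals of the marginal list was 13.16 to 14.08 in wild type and 11.84 to 12.77 in the mutant. In bulk samples fewer cells of a type and less RNA per cell cannot be told apart.

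Signals of the receptor probe sets spanned 3.82 to 10.90 on the wild-type arrays. On all 3 wild-type arrays 19 of the 36 lay above the median of all probe sets, and 9 lay at or below it. Each gene was read by its strongest probe set, which favours a place above that median. The share over all genes read in this way was not computed. The highest mean was that of Thra (10.18 ± 0.66, SD, n = 3) and the lowest that of Nr2e1 (4.39 ± 0.49). Probe sets differ in affinity, so this is an order of signals and not of transcript abundance, and signal over background is not given. Of 35 neighbouring genes in this order, 3 neighbours kept it on all 3 wild-type arrays: Rarg above Rxra, Rora above Hnf4a, and Ppard above Vdr. For the other 32 neighbours the order was not the same on all 3 arrays.

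**Figure D2:**
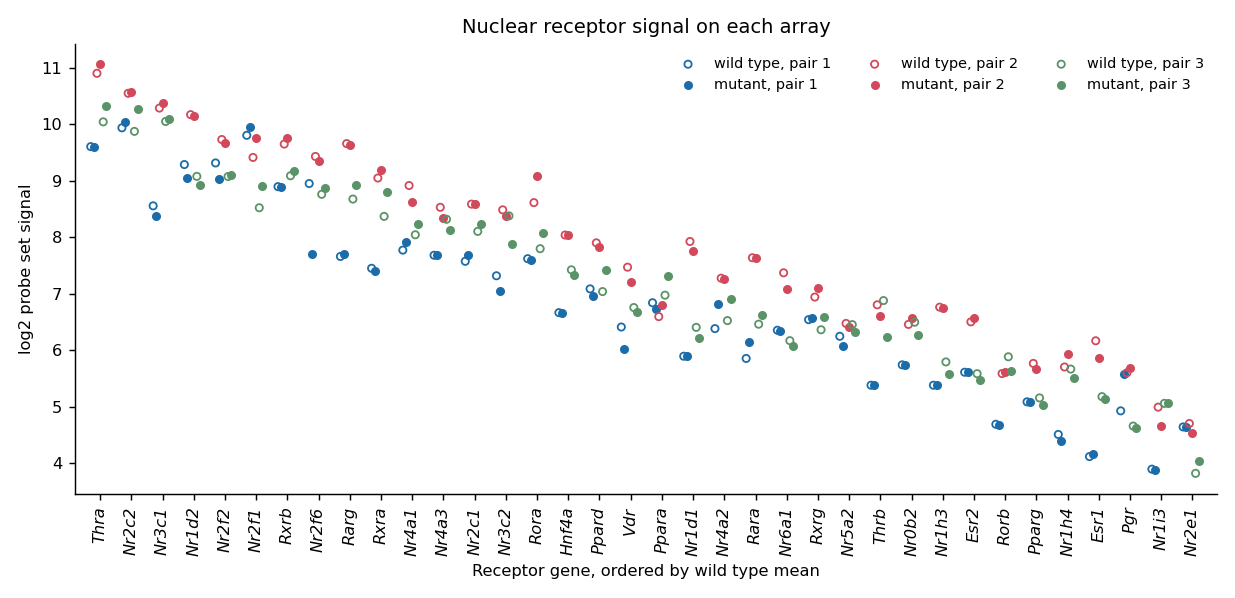
Log2 signal of the 36 receptor genes on the 6 arrays, ordered from left to right by wild-type mean. Open circles are wild type, filled circles mutant, and colours the 3 pairs; circles of one colour lie close together, whereas pairs are spread apart.

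Thyroid hormone receptors were measured by Thra and Thrb, which encode the alpha and beta receptors. Thra had signals of 9.60, 10.90 and 10.04 in wild-type pools 1 to 3 and 9.60, 11.06 and 10.33 in mutant pools 1 to 3. Both arrays of pair 1 were equal and the mutant was higher in the other pairs, with a difference of 0.15 ± 0.14 (limma adjusted p = 0.750). Thrb, needed for hearing, had signals of 5.38, 6.80 and 6.88 in wild type and 5.38, 6.60 and 6.24 in the mutant. It was equal in pair 1 and lower in the mutant of pairs 2 and 3, most in pair 3. Its difference was -0.28 ± 0.33 (adjusted p = 0.736), and its 95% interval of -0.62 to 0.056 was among the wider ones. The other 2 probe sets of Thra differed by 0.0041 and 0.19.

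Of the 5 measured retinoid receptors 0 passed, and all 5 means were positive. Rarg, a retinoic acid receptor of epithelia and cartilage, had signals of 7.66, 9.66 and 8.67 in wild type and 7.70, 9.64 and 8.92 in the mutant. The genotypes were close in each pair, with a difference of 0.091 ± 0.14 (adjusted p = 0.783). Rara, the other retinoic acid receptor of the set, differed by 0.15 ± 0.15. All 3 retinoid X receptors, the shared dimer partners of many other members, had positive means. Rxra had signals of 7.45, 9.05 and 8.37 in wild type and 7.39, 9.20 and 8.80 in the mutant, with a difference of 0.18 ± 0.25 (adjusted p = 0.751). It was lower in the mutant of pair 1 and higher in the others, and its remaining probe sets differed by -0.088 and 0.055. Rxrb had signals of 8.89, 9.65 and 9.09 in wild type and 8.89, 9.76 and 9.17 in the mutant. Its 2 values in pair 1 were equal, and its difference of 0.065 ± 0.058 was one of the most even. Rxrg, whose promoter window is shown above with that of Rxra, was higher in all 3 pairs (0.021, 0.16 and 0.22) without passing (adjusted p = 0.750).

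Of the 7 receptors for fatty acids and of the circadian clock, 0 passed. The peroxisome proliferator-activated receptor genes Ppara, Ppard and Pparg, regulators of lipid metabolism, differed by 0.14 ± 0.23, 0.059 ± 0.28 and -0.077 ± 0.067. Nr1d2, one of the REV-ERB repressors of the circadian clock, had signals of 9.28, 10.17 and 9.08 in wild type and 9.05, 10.14 and 8.92 in the mutant. It was lower in all 3 pairs by a small amount, with a difference of -0.14 ± 0.11 (adjusted p = 0.750). Its partner Nr1d1 was equal in pair 1 and differed by -0.12 ± 0.10 on average. Rora, an activator at the same elements, had signals of 7.62, 8.61 and 7.80 in wild type and 7.60, 9.09 and 8.07 in the mutant. The mutant was higher in pairs 2 and 3, with a difference of 0.24 ± 0.25 (adjusted p = 0.730). The other 8 probe sets of Rora differed by -0.17 to 0.069, all less than the one with the highest signal. Rorb, its relative, differed by -0.077 ± 0.15.

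Vdr, the receptor for the active form of vitamin D, was lower in the mutant of all 3 pairs by both of its probe sets. The stronger one had signals of 6.41, 7.47 and 6.75 in wild type and 6.02, 7.20 and 6.67 in the mutant. Its pair differences were -0.39, -0.27 and -0.088, with a mean of -0.25 ± 0.15 (adjusted p = 0.629). The second probe set had signals of 6.74, 7.31 and 6.51 in wild type and 6.15, 6.91 and 6.30 in the mutant. It differed by -0.40 ± 0.19 and had the smallest adjusted p of the 98 probe sets, 0.426, so neither passed. On the deposited scale, where array medians differed between pairs, the genotypes overlapped across pairs. With arrays centred on their medians, the stronger probe set did not overlap. It then lay at 0.34, 0.52 and 0.33 in wild type and at -0.058, 0.27 and 0.28 in the mutant. In the same group Nr1h3, an oxysterol receptor, differed by -0.076 ± 0.12, the bile acid receptor gene Nr1h4 by -0.018 ± 0.21 and the xenobiotic receptor gene Nr1i3 by -0.12 ± 0.19. All 4 measured genes of this group thus had negative means, and none passed.

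The COUP transcription factors, orphan receptors of organ development, held the member with the smallest adjusted p and the one with the largest difference. Nr2f1 had signals of 9.80, 9.41 and 8.52 in wild type and 9.94, 9.76 and 8.90 in the mutant. The mutant was higher in all 3 pairs (0.14, 0.35 and 0.38), with a difference of 0.29 ± 0.13 and a 95% interval of 0.088 to 0.49. This was the smallest adjusted p among the 36 genes, 0.516, and it did not pass. Nr2f2 had signals of 9.31, 9.73 and 9.07 in wild type and 9.03, 9.67 and 9.10 in the mutant, a difference of -0.11 ± 0.16. Its values overlapped closely, and its sign changed between pairs.

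Nr2f6 carried the largest difference of the set, and it rested on a single array. Its signals were 8.95, 9.43 and 8.76 in wild type and 7.70, 9.34 and 8.86 in the mutant. The mutant array of pair 1 was 1.25 below its wild-type partner, and the other pairs differed by -0.084 and 0.10. The mean of -0.41 ± 0.73 (adjusted p = 0.751) became 0.010 without replicate 1. Its second probe set differed by -0.28 in pair 1 and by -0.044 ± 0.21 on average.

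The remaining orphan receptors of the same family had smaller differences. Nr2c2, a testicular receptor that is widely expressed, had signals of 9.93, 10.55 and 9.87 in wild type and 10.03, 10.56 and 10.27 in the mutant. It was higher in all 3 pairs, chiefly in pair 3, with a difference of 0.17 ± 0.20 (adjusted p = 0.750). Nr2c1, its partner, differed by 0.080 ± 0.071, and Hnf4a, a regulator of liver and gut epithelia, by -0.033 ± 0.057. Nr2e1, known from neural progenitors, differed by 0.017 ± 0.20 at the lowest signal of the set.

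Among the steroid receptors, the glucocorticoid receptor gene Nr3c1 had one of the smallest differences by its strongest probe set. That probe set had signals of 8.55, 10.28 and 10.05 in wild type and 8.38, 10.38 and 10.09 in the mutant. It differed by -0.016 ± 0.14 (adjusted p = 0.964). The other probe sets of Nr3c1 differed by -0.49 to 0.15, and the difference was -0.13 with its probe sets averaged. The mineralocorticoid receptor gene Nr3c2 had signals of 7.32, 8.48 and 8.38 in wild type and 7.04, 8.38 and 7.88 in the mutant. It was lower in all 3 pairs (-0.27, -0.10 and -0.50), with a difference of -0.29 ± 0.20 and a 95% interval of -0.53 to -0.050, and did not pass (adjusted p = 0.611). The sex steroid receptors had low signals. Esr1 and Esr2, the estrogen receptors, differed by -0.11 ± 0.19 and -0.015 ± 0.089. Pgr, the progesterone receptor, had signals of 4.93, 5.60 and 4.66 in wild type and 5.57, 5.69 and 4.62 in the mutant. Its difference of 0.23 ± 0.36 rested on pair 1 (0.64, against 0.090 and -0.037), and its other probe sets differed by 0.039 and 0.00087. In wild type alone, the probe set that differed by 0.039 had the higher mean (5.11, against 5.06). The mutant signals thus decided which probe set was read for Pgr, and its difference is not independent of that choice.

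The NR4A receptors are induced as immediate early genes. Nr4a2 had signals of 6.38, 7.27 and 6.52 in wild type and 6.81, 7.26 and 6.90 in the mutant. The mutant was higher in pairs 1 and 3 and level in pair 2, with a difference of 0.27 ± 0.24 (adjusted p = 0.706). The other 5 probe sets of Nr4a2 differed by -0.19 to 0.15, and the strongest probe set left after removal of the _s_at and _x_at classes differed by -0.0066. Nr4a1 differed by 0.014 ± 0.26 and Nr4a3 by -0.13 ± 0.11, and neither passed. Neuron markers were also higher in the mutant of pair 1, with a list median of 1.12 there against 0.30 and 0.24 in the other pairs. Over all 9 genes of this list the log2 of the summed signals was 9.33 to 9.92 in wild type and 9.56 to 11.12 in the mutant. Its part in the pair 1 values of Nr4a2 and Pgr was not tested.

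Of the last 3 members 0 passed. Nr5a2, a phospholipid-binding receptor, was lower in all 3 pairs by -0.16, -0.063 and -0.13, with a mean of -0.12 ± 0.051 (adjusted p = 0.750). Nr6a1, the germ cell nuclear factor whose promoter stretch is shown above, was lower in all 3 by -0.016, -0.29 and -0.091. Nr0b2, a corepressor-like receptor without a DNA-binding domain, differed by -0.039 ± 0.17. The same sign in all 3 pairs was seen in 8 of the 36 genes, against 21.9% of all genes. Of these 5 were lower (Vdr, Nr3c2, Nr1d2, Nr5a2 and Nr6a1), against 9.03% of all genes lower in all pairs. The 3 higher ones were Nr2f1, Nr2c2 and Rxrg, against 12.9%.

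Several probe sets of a gene did not always move together. Of the 22 receptor genes with more than 1 probe set, 11 had the same sign of the mean in all of them. Of the 98 probe sets 0 passed, and 5 had an unadjusted p under 0.05, against 7.18% of all probe sets. These were both of Vdr and 1 each of Nr2f1, Nr3c2 and Nr2c1. A difference of at least 1 in some pair occurred in 4 of the 98, against 2.11% of all probe sets. They were the first probe set of Nr2f6 in pair 1, and weaker probe sets of Nr1d2 (-1.71) and Nr3c1 (-1.26 and -1.65) in pair 3.

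The last 3 large differences all fell on mutant array 3. The weaker Nr1d2 probe set had signals of 4.02, 7.09 and 6.70 in wild type and 6.95 and 4.99 in mutant pools 2 and 3, and differed by -0.023 in pair 1. One weaker Nr3c1 probe set had signals of 4.86, 8.39 and 8.31 in wild type and 4.98, 8.35 and 7.05 in the mutant. Both were also low on the 2 arrays of pair 1. These 3 arrays had Gapdh gaps of 0.51 or more, above the other arrays, whereas the Actb gap was 0.49 on mutant array 3 and 0.52 on wild-type array 2, where both probe sets were high. The part of RNA quality was not tested. The strongest probe sets of these 2 genes differed by -0.16 and 0.039 in pair 3.

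**Figure D3:**
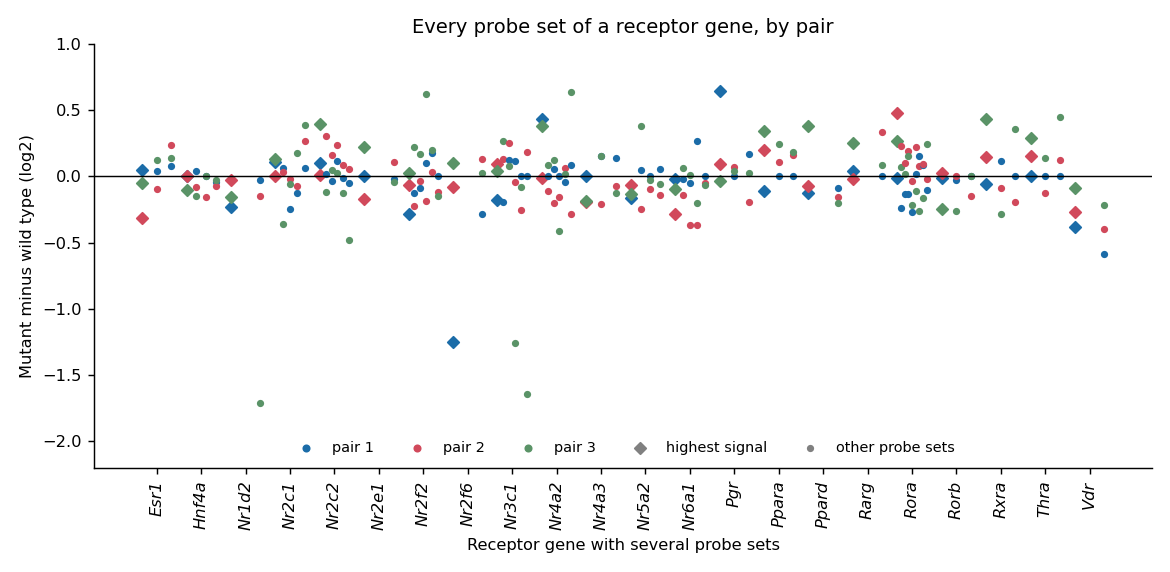
Difference in each pair (log2, vertical axis) for every probe set of the 22 receptor genes with several probe sets. Diamonds are the probe set with the highest signal, small circles the others, and colours the pairs; the points below -1 are Nr2f6 in pair 1 and weaker probe sets of Nr1d2 and Nr3c1 in pair 3.

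Receptor signals, like those of most genes, varied more between pairs than between genotypes. With each array centred on its own median, the range over the 3 wild-type arrays had a median of 0.58 over the 36 genes. The largest genotype difference of any pair had a median of 0.28, and the range was the greater of these for 31 genes (86.1%). Over all genes the medians were 0.46 and 0.21, and the range was the greater for 81.4%. Nr2f1 lay 3.73, 2.46 and 2.10 above the array median in wild-type pools 1 to 3, and 3.86, 2.82 and 2.52 above it in the mutant pools. It was thus highest in pair 1 in both genotypes. Nr1d1 lay at -0.18, 0.98 and -0.020 in wild type and at -0.19, 0.82 and -0.16 in the mutant, and was highest in pair 2. Rxrb was the most even gene, at 2.82, 2.70 and 2.66 in wild type. The labels do not say what distinguished the pairs.

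**Figure D4:**
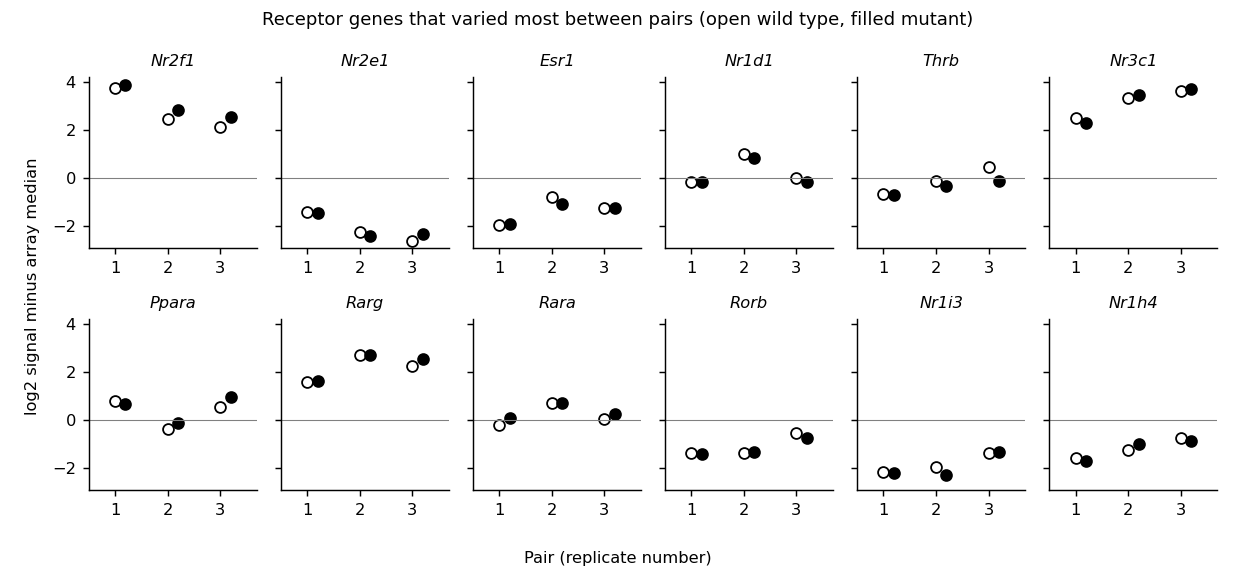
Log2 signal minus the array median, by pair, for the 12 receptor genes with the widest range over the wild-type arrays. Open circles are wild type and filled circles mutant; Nr2f1 is highest in pair 1 and Nr1d1 in pair 2, in both genotypes.

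Genes that work with the receptors were read from 10 lists, which share some genes. Only 1 gene on them passed, Aldh1a2, which encodes an enzyme that makes retinoic acid, the ligand of the retinoic acid receptors. It had signals of 10.10, 10.57 and 9.64 in wild type and 7.17, 7.91 and 7.04 in the mutant. All mutant values lay below all wild-type values, and Aldh1a2 fell by 2.73 ± 0.18 on the log2 scale (adjusted p = 0.00380, and 0.158 without the block). Its size was -2.76 without replicate 2 and -2.80 without replicate 3, where it no longer passed. The other 18 of the 19 measured genes of ligand supply differed by 0.19 or less in either direction. They included Dio2, the deiodinase that activates thyroid hormone (0.14 ± 0.35), and Crym, a thyroid hormone-binding protein (0.15 ± 0.16). Of 8 measured target genes of retinoic acid receptors, 0 passed, and their median was 0.012. The largest differences there were those of Cyp26a1, a retinoic acid-degrading enzyme (-0.14 ± 0.14), and Tgm2, a transglutaminase (0.13 ± 0.067). Rarb, the third retinoic acid receptor and itself a target, differed by -0.078 ± 0.22.

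Of 15 targets of glucocorticoid and mineralocorticoid receptors, 0 passed, and their median was -0.025, against 0.0036 over all genes. Mt1, a metallothionein, had signals of 9.40, 10.33 and 9.75 in wild type and 8.75, 9.59 and 8.93 in the mutant. It was lower in all 3 pairs by like amounts, with a difference of -0.74 ± 0.0845 (adjusted p = 0.0811). That value came from 1 probe set: the difference was -0.094 (adjusted p = 0.779) without the _x_at and _s_at classes and -0.42 with the probe sets of the gene averaged. Dusp1, a phosphatase of MAP kinases, differed by -0.64 ± 0.20 (adjusted p = 0.218). At an unadjusted p under 0.05 were 5 of the 15, against 7.35% of all genes, all lower and each lower in all 3 pairs, against 9.03%: these 2, Klf9 (-0.43 ± 0.13), the kinase gene Sgk1 (-0.22 ± 0.039) and Tsc22d3 (-0.23 ± 0.18). Sgk1 and Tsc22d3 were picked after their values were seen. Fkbp5, a common marker of glucocorticoid action also picked after its values were seen, differed by -0.19 ± 0.26 with changing sign. The marginal cell markers given above were lower in the same mutant pools, and their part was not tested.

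The 16 measured coregulators had a median of 0.065 and 0 passed. Ppargc1a, a coactivator of estrogen-related receptors and peroxisome proliferator-activated receptors, had signals of 7.68, 7.91 and 7.51 in wild type and 6.98, 7.92 and 6.28 in the mutant. It was lower in pairs 1 and 3 and level in pair 2, with a difference of -0.64 ± 0.62 (adjusted p = 0.659). Nrip1, a corepressor, was higher in all 3 pairs by its strongest probe set (0.33 ± 0.21, adjusted p = 0.555), and differed by -0.0028 with its probe sets averaged. Of 6 thyroid hormone targets, Klf9, a zinc finger factor that also responds to glucocorticoids, and Rcan2, a calcineurin regulator (0.24 ± 0.11, or 0.043 with its probe sets averaged), had the largest differences, and 0 passed.

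In the lists of lipid receptor targets 0 of 11 genes for peroxisome proliferator-activated receptors and 0 of 12 for oxysterol and bile acid receptors passed. Fabp3, a fatty acid-binding protein, differed by -0.83 ± 0.67, with -0.14, -0.87 and -1.47 in pairs 1 to 3, and by -0.44 with its probe sets averaged. Adipoq, an adipocyte hormone, differed by 0.33 ± 0.95 and changed sign. Apoe, a lipid carrier, differed by -1.07 ± 1.39, which rested on pair 1 (-2.65, against -0.075 and -0.48). Scd1, a fatty acid desaturase, was lower in all 3 pairs (-0.28 ± 0.10, adjusted p = 0.475).

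Clock and immediate early genes gave 0 of 15 and 0 of 13 that passed. Bhlhe40, a clock repressor, was lower in all 3 pairs (-0.37 ± 0.077, adjusted p = 0.317), and its relative Bhlhe41 differed by -0.15 ± 0.15, or by 0.053 with its probe sets averaged. Egr1, which like the NR4A genes responds to stimuli within minutes, was higher in all 3 pairs (0.50 ± 0.26, adjusted p = 0.410). Egr2 differed by 0.47 ± 0.61, mostly in pair 1 (1.16). Of 8 measured family members outside the set, 0 passed, and Esrrg and Esrra had the largest differences (-0.19 ± 0.17 and -0.18 ± 0.17).

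**Figure D5:**
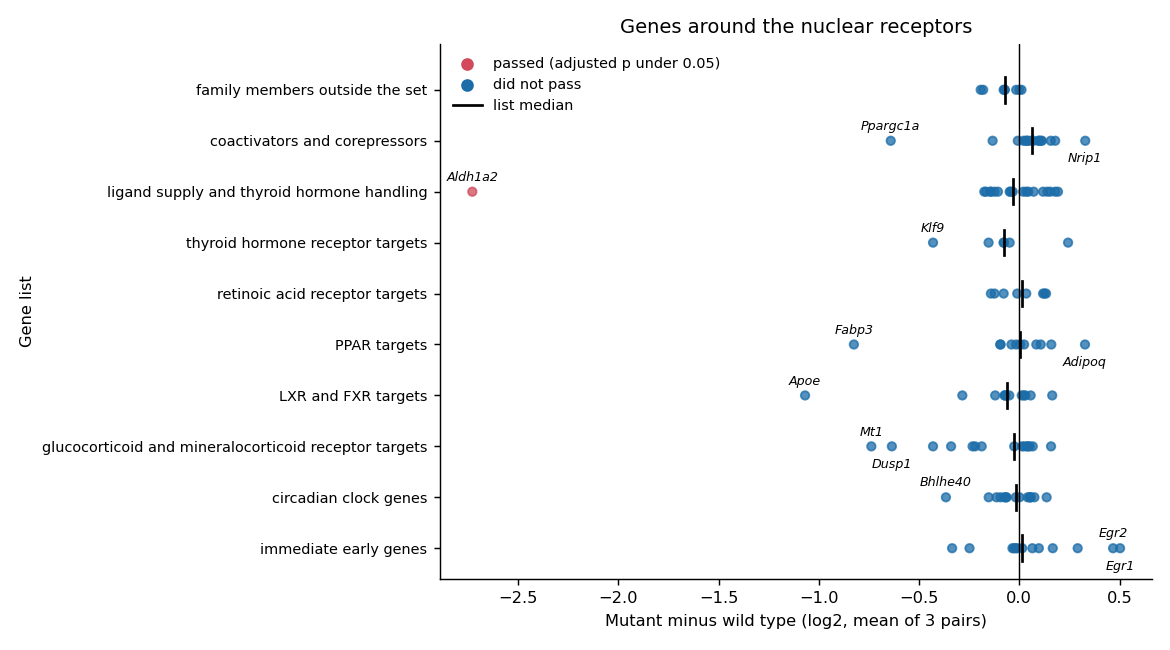
Mean difference of 3 pairs (log2, horizontal axis) for each measured gene of the 10 lists around the receptors, with the list median as a black bar. Aldh1a2, in red at -2.73, is the one gene that passed; the medians lie between -0.077 and 0.065.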

How the data were processed

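RNA was measured in 6 pools of mouse stria vascularis, 3 wild type and 3 Errb mutant, on 1 array each. The authors deposited log2 values for each probe set. Per the submitters' processing notes, RMA was used. No version or setting is known here, and the scale is inferred from the range of 2.33 to 14.6. Values were used as deposited, with 64 control probe sets left out and 45037 tested.

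Genotypes were compared by limma 3.58.1 in R 4.3.3 (lmFit and eBayes, two-sided), taking the replicate number as a block and Benjamini-Hochberg adjustment over all tested probe sets. Pairing follows the replicate numbers in the labels; the correlation of a pair's deviations from the genotype means was 0.879, 0.818 and 0.746, each above a limit of 0.1. Whether the authors normalized each pair separately is not stated, and its part in these correlations was not tested. Intervals are limma's 95% intervals. Precision is limited by 3 arrays a genotype.

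Members, lists and tests were chosen with earlier results of these data known. Values on every array are given for the 10 members with the largest difference, the 10 with the highest wild-type mean, and further probe sets picked after their values were seen. Of each related list, genes that passed or else the 2 with the largest difference are named; other names on these lists were picked after their values were seen. The fit was tested on simulated data. Alternatives were a level filter, quantile normalization, median centring, other eBayes options, no block, leaving out a replicate, averaging probe sets, leaving out cross-hybridising classes and a threshold of 0.01.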

Additional observations from a re-analysis of the deposited data

How the results depend on the processing

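No receptor gene passed under any alternative run: 0 of 36 with no replicate block, quantile normalization, median centring, other eBayes options, each replicate left out, averaged probe sets, without the _x_at and _s_at classes and at a threshold of 0.01, and 0 of the 24 left by the level filter. Single receptor genes changed sign in 17 of 348 alternative values, in 12 genes. The named related genes did so in 3 of 185 (Adipoq without replicate 1, Bhlhe41 and Nrip1 with probe sets averaged). None of the changed values was called. These totals include settings that leave every difference unchanged by design: no replicate block, other eBayes options and the level filter. Averaging likewise cannot change a gene with 1 probe set. Sign changes among values that could move were therefore more frequent than these totals show. Averaging probe sets could change only the 22 receptor genes with more than 1 probe set. It moved 14 of these by over 1.5 times or turned them (3 turned: Nr2f2, Ppard and Esr1). The median difference was 0.062 with the level filter, which tests fewer genes, and -0.0037 with median centring, and ran from -0.029 to -0.0021 when a replicate was left out, against -0.017. Over all probe sets 42 passed with the block, 3 with no replicate block, 6 at a threshold of 0.01, and 0 to 7 when a replicate was left out, where fewer samples remain. Replicate numbers pair the samples, and dropping the block changed no call on a receptor gene; Aldh1a2 no longer passed without the block (adjusted p = 0.158) or without replicates 2 and 3 (0.879 and 0.422, fits in which 0 probe sets passed), at differences of -2.73, -2.76 and -2.80. Signal over background is unknown, so small differences of the dimmest receptors cannot be read.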

Other observations

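The spread between pairs was also seen in genes of ligand supply: the range over the centred wild-type arrays exceeded the largest genotype difference of any pair for 16 of 19 measured genes, against 81.4% of all genes. The exceptions were Aldh1a2, Cyp24a1 and Dio1. With arrays centred on their medians, Dio2, the activating deiodinase, lay at 2.01, 2.59 and 4.27 in wild-type pools 1 to 3, and Slco1c1, a thyroid hormone transporter, at 1.15, 2.37 and 3.77. Otos, a gene of spiral ligament fibrocytes, lay at 1.28, 3.68 and 5.83 in the same pools. Thrb lay at -0.69, -0.14 and 0.45, and Esrrb at 3.61, 3.65 and 3.53. These genes were picked after their values were seen, and each value rests on 1 array.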
